A study of Rattus norvegicus with 6 samples.

Results

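The alpha-amylase genes Amy1 and Amy2a3 were followed in the pancreas of rats fed a control diet or an ethanol diet. Each was read by 1 probe set annotated to that gene alone, so the 2 genes made up 2 of 15866 probe sets, or 2 of the 10411 genes with such a probe set. Expression had been measured in 3 rats per diet, 1 array per rat, in a study of chronic ethanol consumption. The labels name no strain, sex, age, ethanol dose or length of feeding, and no genotype or treatment other than the diet. The 2 genes were selected on their levels and their ratio by diet on these arrays, so those values are a description and carry no test.

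Alpha-amylase is a secreted enzyme that cuts the inner bonds of starch and glycogen. In rodents the Amy1 gene is known for its product in the salivary glands and liver, and the Amy2 genes for pancreatic amylase, which acinar cells store in zymogen granules with the other digestive enzymes and release on stimulation by cholecystokinin and acetylcholine. Pancreatic amylase is known to respond to dietary starch, insulin and glucocorticoids, and its gene to depend on the acinar factor PTF1.

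RefSeq places both genes on chromosome 2 of the GRCr8 assembly, in a cluster and on the same strand. Amy2a3 (gene ID 497039) is followed by LOC103689940, a further protein-coding amylase gene, and then by Amy1 (gene ID 24203). The pseudogenes Amy2a3-ps1 and Amy2-ps2 lie on the far side of Amy2a3. The 250 bases before each annotated start are shown because the genes belong to 1 cluster while their signals varied differently with diet. Capitals mark the E-box CANNTG, the kind of site bound by basic helix-loop-helix factors such as PTF1A, and the TATA box TATAAA, both searched on both strands; the matches to TATAAA on the 2 strands overlap in Amy1.
Amy1, chr2:204085911-204086160, minus strand: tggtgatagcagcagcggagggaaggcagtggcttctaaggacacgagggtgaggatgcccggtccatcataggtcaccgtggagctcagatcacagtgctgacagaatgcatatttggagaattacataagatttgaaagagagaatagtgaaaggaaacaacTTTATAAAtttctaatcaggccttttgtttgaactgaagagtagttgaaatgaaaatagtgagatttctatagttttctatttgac
Amy2a3, chr2:204014413-204014662, minus strand: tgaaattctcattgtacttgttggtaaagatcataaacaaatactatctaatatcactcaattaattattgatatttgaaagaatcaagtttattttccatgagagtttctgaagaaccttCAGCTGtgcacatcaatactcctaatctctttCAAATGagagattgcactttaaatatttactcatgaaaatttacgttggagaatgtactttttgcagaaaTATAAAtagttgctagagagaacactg

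The 2 windows had little in common. Over 274 columns of a global alignment, 132 were identical (48.2%), whereas the windows of Amy2a3 and LOC103689940 were identical in 248 of 251 columns (98.8%). Amy2a3 held 2 E-boxes, CAGCTG at 129 bases and CAAATG at 97 bases before the start (position of the first base), and a TATAAA at 27 bases. Amy1 held no CANNTG in this window, and its TATAAA lay 84 bases before the annotated start. Among 33469 promoters of this length, 65.54% held CANNTG, 11.97% held CAGCTG and 12.93% held TATAAA. Neither window held TTTCCCA, a motif bound by the RBPJ family partner in PTF1, which 7.1% of promoters held. These matches describe letters and were not tested as sites.

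Amy1 signal was lower in every ethanol rat than in every control rat. Deposited intensities, taken as linear, were 10886, 12628 and 10754 in control replicates 1, 2 and 3. They were 5918, 5704 and 6724 in ethanol replicates 1, 2 and 3. The groups did not overlap, and the lowest control value stood well clear of the highest ethanol value. The means were 11423 ± 1046 and 6115 ± 538 (SD, n = 3 each), a log2 difference of -0.90 (SE 0.15), ethanol minus control, or 0.538 of the control level. Log2 values were taken of the intensity plus 50 here and throughout, and the SE is that of the limma fit over 9520 probe sets kept by an intensity filter.

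Amy2a3 signal overlapped between the diets. Its intensities were 79430, 73679 and 92271 in control replicates 1, 2 and 3 and 85785, 82310 and 88927 in ethanol replicates 1, 2 and 3. All 3 ethanol values lay inside the control range. The means were 81793 ± 9519 and 85674 ± 3310 (SD, n = 3 each), with a log2 difference of 0.07 (SE 0.15), which is smaller than its own error. The control rats were more spread than the ethanol rats, with SDs of 0.17 and 0.06 on the log2 scale, while for Amy1 they were 0.13 and 0.12. The spread within diets was 0.13 for Amy1 and 0.12 for Amy2a3, against a median of 0.22 over all probe sets tested.

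Of the 2 probe sets, 0 passed an adjusted p under 0.05 in the limma fit, where 0.41% of the 9520 probe sets were called (39 of them, with 0.105% called higher and 0.305% called lower in ethanol). Without control replicates 1, 2 or 3 that count over all probe sets was 3, 4 or 2, and without ethanol replicates 1, 2 or 3 it was 38, 14 or 2. Groups lower in ethanol without overlap, as for Amy1, occurred on 14.3% of probe sets and 15.4% of genes. A difference below that of Amy1 was found on 108 of the 9520 probe sets (1.13%), and one below that of Amy2a3 on 59.1%. Because the genes were chosen with this contrast known, nothing is read from these counts.

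**Figure D1:**
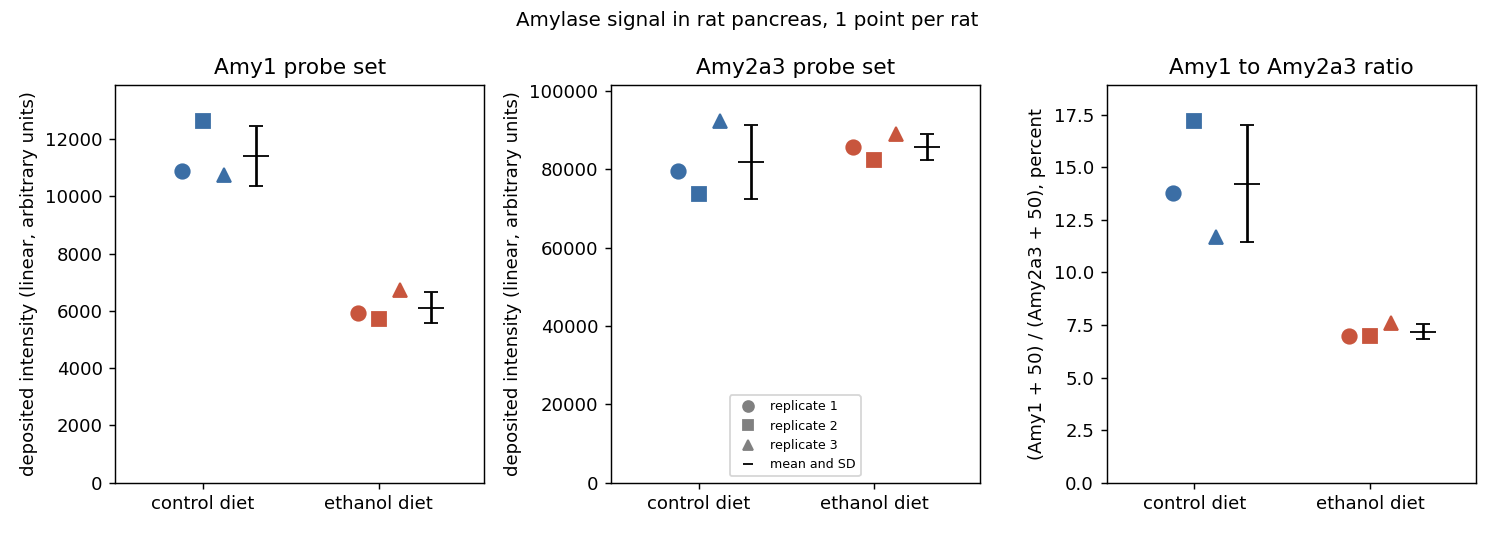
Deposited intensity of the Amy1 and Amy2a3 probe sets (linear, arbitrary units) and their ratio within an array (percent), by diet, with 1 point per rat and the mean and SD of 3 rats. Amy1 and the ratio lie lower in all 3 ethanol rats, from 5704 to 6724 for Amy1, while the Amy2a3 points of the ethanol rats lie inside the range of the controls.

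The ratio of Amy1 to Amy2a3 within an array separated the diets. It was 13.8%, 17.2% and 11.7% in control replicates 1, 2 and 3 and 6.95%, 6.99% and 7.61% in ethanol replicates 1, 2 and 3. The 3 ethanol arrays lay close together, below all 3 controls, and the controls were the more spread. The means were 14.2% ± 2.78 and 7.18% ± 0.372 (SD, n = 3 each). On the log2 scale the ratio differed by -0.97 (SE 0.17), to 0.511 of the control level, and 0.62 separated the lowest control from the highest ethanol array. This SE was taken from the 3 ratios of each diet alone, not from the limma fit. In control replicate 2 the highest Amy1 met the lowest Amy2a3, and in control replicate 3 the lowest Amy1 of the controls met the highest Amy2a3. Probe sets differ in affinity, so the percentage compares arrays and is not the share of Amy1 among amylase transcripts. It says nothing on whether Amy2a3 was constant.

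Both probe sets were bright. Amy1 ranked between 207 and 235 of 15866 probe sets on the control arrays and between 383 and 466 on the ethanol arrays. Amy2a3 ranked between 23 and 29 on the control arrays and at 25 on each ethanol array. It reached 44.1% to 55.3% of the brightest value on its array, and Amy1 3.43% to 7.56%. A further probe set annotated to both amylases cannot be assigned to either. It read from 135295 to 148306, at 78.8% to 89.9% of the array maximum, with a log2 difference of -0.02 (SE 0.13). No probe or transcript sequences were compared here, and how far the probe sets share signal between amylase genes was not tested. In whole tissue, fewer cells of a type and less RNA per cell cannot be told apart.

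Other digestive enzymes and secreted proteins differed little between the diets in signal, with many of them near the top of the scale. Of a list of 31 digestive enzymes, inhibitors and granule proteins without the amylases, 23 were measured, and limma called 0 of them in either direction, against 0.436% of all 7106 genes tested. At an unadjusted p below 0.05 there were also 0, where 18.8% of all genes passed. That count depends on the setting: with limma's variance trend it was 4, where 1870 of the 9520 probe sets passed. The log2 differences of the 23 genes ran from -0.10 to 0.24, with a median of 0.04 against -0.01 over all genes tested. The groups did not overlap for 5 of the 23, all higher in ethanol, where 11% of genes were so placed, and 26.4% in either direction.

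By enzyme class the values were as follows. The elastase Cela1 had the lowest difference of the list, at -0.10 (SE 0.13). The trypsinogen Prss2 was at 101511, 98111 and 86242 in the controls and 114817, 102587 and 110205 in ethanol rats (log2 difference 0.20, SE 0.14), with no overlap but a difference not called. The trypsin inhibitor Spink1l was at 39151, 36758 and 42770 and at 44220, 45548 and 50355 (0.24, SE 0.14). The granule membrane protein Cuzd1 had 0.19 (SE 0.16), with ethanol replicate 2, at 75469, inside the control range and the other ethanol rats above it. The nuclease Dnase1 had 0.23 (SE 0.15). Cpa3 of this list is a carboxypeptidase known from mast cells rather than acinar cells, and was at 0.14 (SE 0.20).

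The brightest members lay at the top of the scale. The lipase Pnlip was at 155292 ± 1639 and 166457 ± 4694 (SD, n = 3; log2 difference 0.10), the carboxypeptidase Cpa1 at 163511 ± 2891 and 165503 ± 3117 (0.02), the chymotrypsin Ctrc at 160328 ± 2712 and 163806 ± 4694 (0.03), and the lipase Cel at 162192 ± 1552 and 159310 ± 3814 (-0.03). On some array, 14 of the 23 reached 80% or more of the brightest value, where saturation can hide a difference. The other 9 had a median log2 difference of 0.14. Trypsinogens, elastases and chymotrypsins are families of similar genes whose probe sets can share signal.

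**Figure D2:**
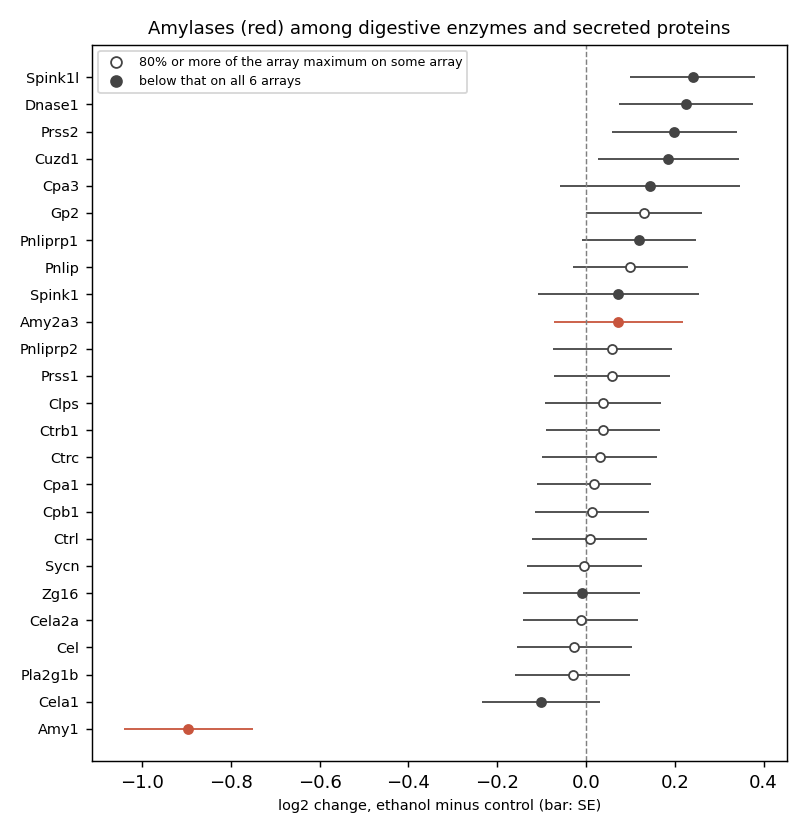
Log2 change from control to ethanol diet (bar: SE of the limma fit, 3 rats per diet) for the amylases, in red, and 23 other digestive enzymes and secreted proteins; open points reached 80% or more of the array maximum. Amy1 lies at -0.90, apart from the others, which run from -0.10 to 0.24 with Amy2a3 among them at 0.07.

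Against each of these 23 genes in turn, the within-array ratio of Amy1 was lower in all 3 ethanol rats than in all 3 controls. Its log2 change ran from -1.14 against Spink1l to -0.79 against Cela1, with a median of -0.93. Against the 9 genes below 80% of the array maximum the median was -1.04, again without overlap for 9 of 9. The same ratio for Amy2a3 ran from -0.17 to 0.17 with a median of 0.03. It did not overlap between the diets for 1 of the 23, Spink1l, against which it was lower in ethanol. The 23 ratios of a gene share its own 6 values, and are no independent evidence of its difference.

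**Figure D3:**
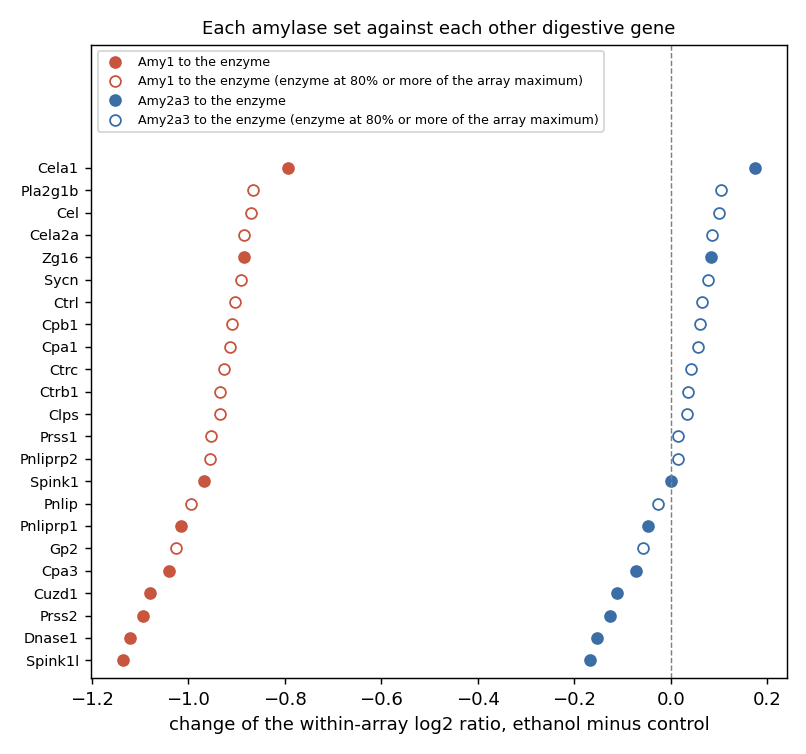
Change of the within-array log2 ratio of Amy1 (red) and Amy2a3 (blue) to each of 23 other digestive enzymes and secreted proteins, ethanol minus control, means of 3 rats per diet. The Amy1 ratios run from -1.14 to -0.79 and the Amy2a3 ratios from -0.17 to 0.17; open points are genes at 80% or more of the array maximum.

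Transcription factors of acinar cells, among them known activators of pancreatic amylase, went in both directions without a call. Of 26 listed factors 19 were measured, and limma called 0, while 4 were higher and 3 lower by an unadjusted p below 0.05, where 7.66% and 11.2% of all genes were. The groups did not overlap for 5 factors higher and 3 lower in ethanol, where 11% and 15.4% of all genes were so placed. Ptf1a, a DNA-binding subunit of PTF1, was at 9361, 8759 and 10111 in the controls and 12259, 12386 and 14084 in ethanol rats. All 3 ethanol values lay above the controls (log2 difference 0.45, SE 0.14, limma adjusted p = 0.161). The Ptf1a difference was opposite in sign to that of Amy1, while that of Amy2a3, at 0.07 (SE 0.15), was smaller than its error. A link to either amylase was not tested. Hes1, a Notch-responsive repressor, was at 681, 577 and 627 and at 1125, 1250 and 964 (0.77, SE 0.15, limma adjusted p = 0.0847). Xbp1, which drives the secretory machinery, was at 38718, 38430 and 35220 and at 23714, 26006 and 30021 (-0.50, SE 0.15, limma adjusted p = 0.149). Neither gene overlapped between the diets.

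Id2, an inhibitor of basic helix-loop-helix factors, had -0.96 (SE 0.23), and the membrane-bound factor Creb3l1 had 0.49 (SE 0.15). The acinar maturation factor Bhlha15 had -0.06 (SE 0.18) and Gata6 had 0.27 (SE 0.16). Chosen after their values were seen, Hnf4a had 0.62 (SE 0.21) and Foxa3 -0.61 (SE 0.19), the remaining 2 with an unadjusted p below 0.05. None of these differences was called. The list median was 0.03, and -0.08 without ethanol replicate 1. With a variance trend limma called 3 of the 19, Ptf1a and Hes1 higher and Xbp1 lower. A stricter intensity filter, at the 60th percentile of the mean, kept 17 of the 19, and limma called 1, Hes1. These settings called 2.86% and 2.25% of all genes.

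Genes of the hormonal pathways known to act on pancreatic amylase were likewise not called. Of 30 listed receptors and signalling genes 22 were measured, and limma called 0, where 0.436% of all genes were called. By an unadjusted p below 0.05, 4 were higher and 1 lower, against 7.66% and 11.2% of all genes. The groups did not overlap for 7 genes higher and 3 lower in ethanol, where 11% and 15.4% of all genes were so placed. Igf1r, the insulin-like growth factor receptor, was at 1292, 1549 and 1065 in the controls and 693, 529 and 614 in ethanol rats, without overlap (log2 difference -1.02, SE 0.18, limma adjusted p = 0.0613). Tsc22d3, a glucocorticoid-induced gene, was at 1806, 1874 and 1828 and at 3472, 2605 and 2889, again without overlap (0.68, SE 0.15, limma adjusted p = 0.0957). The insulin-responsive factor Foxo1 had 0.83 (SE 0.27), with ethanol replicate 1, at 560, inside the control range. The insulin receptor substrate Irs3 had 0.61 (SE 0.22). Chosen after its values were seen, the muscarinic receptor Chrm3 had 0.39 (SE 0.16).

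Among the brightest of these genes, the ribosomal protein Rps6 had -0.20 (SE 0.13), the translation repressor Eif4ebp1 -0.33 (SE 0.17), Foxo3 0.29 (SE 0.16) and the kinase Akt1 0.23 (SE 0.15); dimmer probe sets of Akt1 gave -0.00051 and 0.20. The list median was 0.09, and -0.02 without ethanol replicate 3. With a variance trend limma called 2 of the 22, Igf1r lower and Tsc22d3 higher. The stricter filter kept 18 of the 22, and limma called 1, Igf1r. In these settings 2.86% and 2.25% of all genes were called.

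A list built around intracellular starch and glycogen enzymes had a median log2 difference of -0.19 over 13 measured of 26 listed genes. Not all of these genes act on the substrate of amylase. Of the 13, 11 were negative, and the median over all genes tested was -0.01. Limma called 0, against 0.436% of all genes. By an unadjusted p below 0.05, 0 were higher and 1 lower, where 7.66% and 11.2% of all genes were. The groups did not overlap for 0 genes higher and 2 lower in ethanol, where 11% and 15.4% of all genes were so placed. Gyg1, the glycogenin that primes glycogen, was at 3005, 3016 and 2581 in the controls and 1314, 1594 and 1665 in ethanol rats, without overlap (log2 difference -0.89, SE 0.15, limma adjusted p = 0.0571). It was called with a constant of 100 (as were 0.591% of all genes), with a variance trend (2.86%), with the stricter filter (2.25%) and with the mean of probe sets (0.675%). The stricter filter kept 7 of the 13 genes. The lysosomal glucosidase Gaa had -0.40 (SE 0.24), the glucosidase Ganc -0.61 (SE 0.28), the glycogen-binding protein Stbd1 -0.33 (SE 0.16), the branching enzyme Gbe1 -0.11 (SE 0.17) and Ugp2, which makes the sugar donor for glycogen, -0.25 (SE 0.19).

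**Figure D4:**
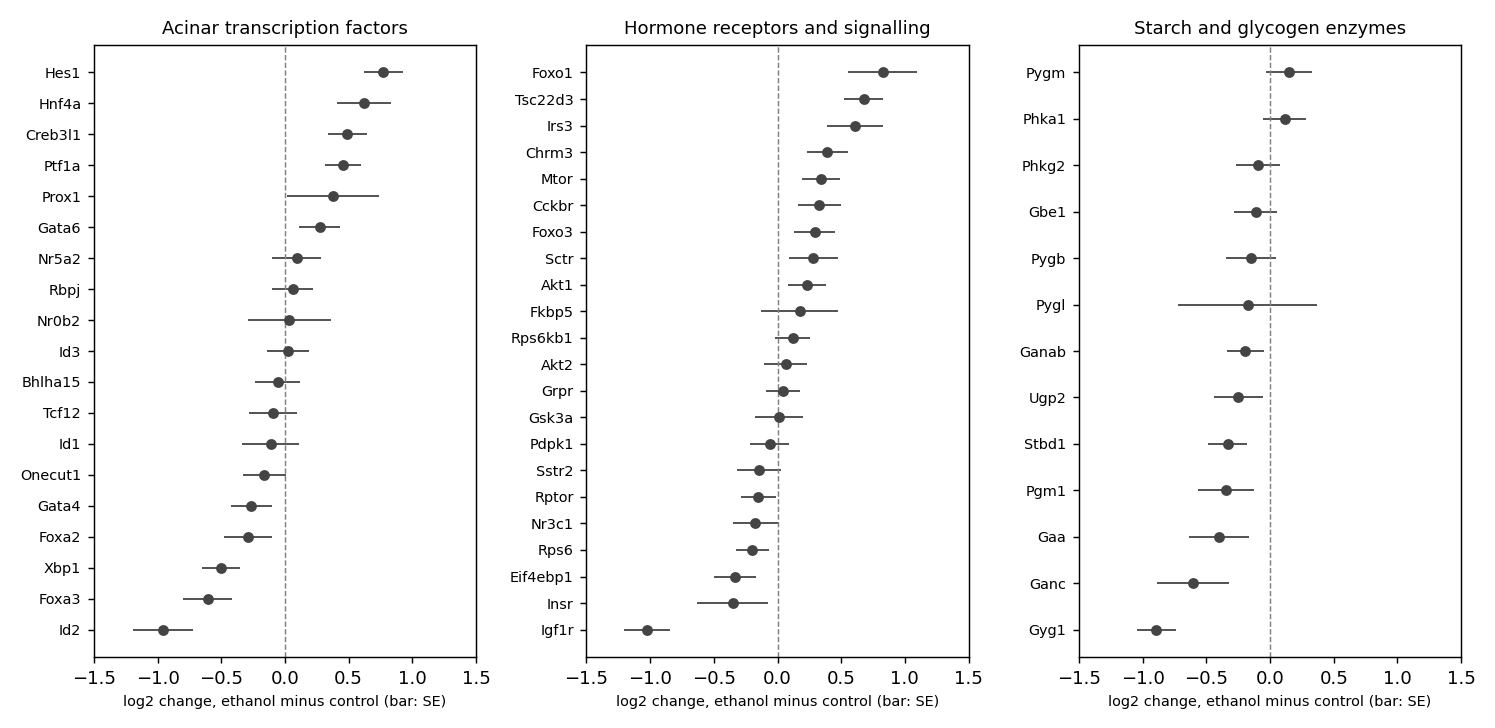
Log2 change from control to ethanol diet (bar: SE of the limma fit, 3 rats per diet). Shown are 19 acinar transcription factors, 22 hormone receptors and signalling genes and 13 genes of the starch and glycogen list. The factors and signalling genes lie on both sides of 0, while 11 of 13 genes of the starch and glycogen list lie below it. None was called.

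The genes closest to each amylase over the 6 arrays were different ones. By Pearson's r of log2 levels, Amy1 was most like Arl2bp (r = 0.998), the protein kinase A subunit Prkar1b (0.996), the lysophospholipase Pnpla7 (0.992), the mitochondrial protease Yme1l1 (0.991) and the mitochondrial insertase Oxa1l (0.988). It was least like Plpp1, a lipid phosphatase (-0.991), Tatdn2 (-0.991) and Hes1 (-0.989). The diets did not overlap for these 8 genes, as on 26.4% of all genes, which the choice by likeness to Amy1 largely fixed. Arl2bp, for example, was at 1963 ± 79.9 in the controls and 1550 ± 33.5 in ethanol rats, and Prkar1b at 4544 ± 234 and 2999 ± 266 (SD, n = 3). None of the 8 was called by limma. An r of at least 0.9 with Amy1 was reached by 299 of 7104 genes and one of -0.9 or below by 157, so a high r was common over arrays that share the split by diet.

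Amy2a3 was most like Scoc, the adhesion molecule Nectin4 and Anks4b (each r = 0.978), the metalloproteinase inhibitor Reck (0.977) and the replication factor Rfc3 (0.971). It was least like Mtss1 (-0.989), Cpn1 (-0.978) and Nbeal2 (-0.977). The diets overlapped for all 8, and the pattern followed control replicate 2, where Amy2a3 was lowest, and control replicate 3, where it was highest. With Amy2a3, 32 genes reached an r of 0.9 and 45 an r of -0.9 or below.

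With each array taken as its deviation from its diet mean, Amy1 was most like Slc25a48 (r = 0.999), Capn1, Itgad, Nsmaf and Scamp2 (0.985 for the last), and least like Col6a1 (-0.994), Inmt and Zfp422. Amy2a3 was then most like Slc41a3 (0.994), Mmadhc, Ndufa4l2, Ccnq and Reck (0.987), and least like Got1 (-0.998), Mid2 and Uqcrfs1. Reck alone was among the 5 highest for Amy2a3 on both scales, and Amy1 had no such gene. By deviations 101 genes reached an r of 0.9 with Amy1 and 112 with Amy2a3. The r values describe 6 arrays and carry no test. Deviations cancel within each diet, so they hold fewer than 6 free values. For Amy2a3 the log2 SD was 0.17 in the controls and 0.06 in ethanol rats, so its r by deviations rests mostly on the controls.

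**Figure D5:**
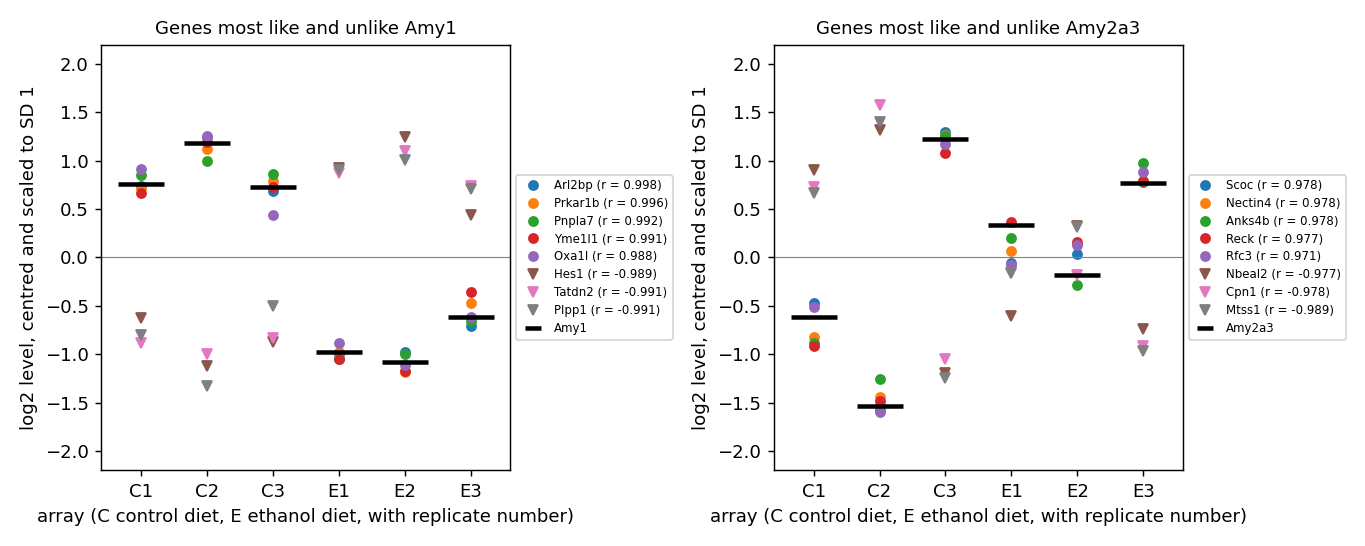
Log2 level on each array, centred and scaled to an SD of 1 per gene, for Amy1 and Amy2a3 (black bars) and the 5 genes of highest (circles) and 3 of lowest (triangles) Pearson r over 6 arrays. The genes like Amy1 split by diet, whereas those like Amy2a3 have their lowest point at control replicate 2 and their highest at control replicate 3.

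Acinar markers were bright on every array. The 6 acinar markers, Pnlip and Cpa1 the brightest, summed to 837367 to 864134 in the controls and 861616 to 898186 in ethanol rats. Markers of salivary gland and liver, the other sites known for Amy1, were mostly dim. Of 9 salivary markers 6 were on the array and 1, Bpifa2, passed the intensity filter (396 ± 39.7 and 402 ± 70.5, SD, n = 3), and Prb1 read between -60 and 55. The 6 summed to 1042 to 1469 in the controls and 1265 to 1589 in ethanol rats. Of 9 liver markers 8 were on the array and 4 passed the filter, with Serpina1 at 2199 ± 165 and 2469 ± 14.4 and albumin, Alb, at 917 ± 161 and 1000.0 ± 270. Apoa1 was below 0 on all 6 arrays, and the summed level was 4917 to 5663 and 5446 to 5623. Neither sum separated the diets.

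The summed markers of 3 other cell types did not overlap between the diets. No background share was computed for such sums. Among the measured genes, 3 of 4 erythroid, 1 of 3 adipocyte and 1 of 3 duct did not overlap, against 26.4% of all genes. Limma called 0 of these marker genes, against 0.436% of all genes. At an unadjusted p below 0.05 there were 3 erythroid, 2 adipocyte and 0 duct genes, all higher in ethanol, as were 7.66% of all genes. By intensity, each sum rests largely on 1 bright gene, Hbb, Lpl or Muc1. Lpl itself overlapped between the diets, with ethanol replicate 1 at 4116 and control replicate 3 at 4353. Chosen after its values were seen, the adipocyte marker Cfd, at 0.69 (SE 0.21), did not overlap. Erythroid markers (4 of 7 on the array, all 4 above the filter) summed to 15433 to 22997 in the controls and 25855 to 33545 in ethanol rats, with Hbb at a log2 difference of 0.80 (SE 0.20) and Hba-a3 at 0.64 (SE 0.20). Adipocyte markers (5 of 6 on the array, 3 above the filter) summed to 4602 to 7038 and 8211 to 9335, with Lpl at 0.77 (SE 0.28) and Fabp4 at -0.13 (SE 0.24). Duct markers (4 of 7 on the array, 3 above the filter) summed to 9865 to 10731 and 8635 to 9065, with Muc1 at -0.27 (SE 0.13) and Spp1 at -0.24 (SE 0.20). Their part in the Amy1 difference was not tested.

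The remaining markers overlapped in their sums. Islet markers summed to 148753 to 182168 and 115767 to 181731 (8 of 8 on the array; Ins2 -0.09, Ins1 -0.17), lymphoid markers to 2881 to 4027 and 2313 to 3616 (6 of 7; Cd74 -0.52), mesenchymal markers to 10701 to 19193 and 10925 to 16816 (5 of 5; Col3a1 -0.05, Dcn -0.14) and endothelial markers to 1358 to 1786 and 1344 to 1649 (3 of 4; Kdr -0.18, Pecam1 -0.04).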

How the data were processed

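RNA from the pancreas of 6 rats was labelled with biotin and hybridised to 1 single-colour array per rat, per the labels. The deposited values are intensities of single probe sets; the scanner, software and normalization are not given here. The deposited intensities are whole numbers, 931 to 949 of them below 0 per array, and the arrays have medians of 543 or 544 and maxima of 163449 to 171742. The linear scale was read from these values, and how values below 0 arose is not given. The intensities were used without further normalization.

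After 57 control probe sets were left out, 15866 remained, of which 12783 carry 1 gene symbol in the platform annotation, 312 several and 2771 none. Values below 0 were set to 0, 50 was added and log2 was taken. The 9520 probe sets at or above the 40th percentile of the mean were fitted with limma 3.58.1 in R 4.3.3 (2 diets, no block, empirical Bayes), with Benjamini-Hochberg adjustment over all of them. The median SE was 0.18, and the number of arrays limits the precision. A gene was read on the brightest of its kept probe sets. The fit was tested on simulated data.

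The members, the gene lists and the rule for naming were chosen with earlier results of these data known. The rule names the amylases, the 4 brightest genes and the 4 with the lowest p of every pathway list, the 2 brightest of each marker list, and the 5 highest and 3 lowest correlates of each amylase. Other settings tried were a constant of 20 or 100, quantile or equal-median scaling, no intensity filter or one at the 60th percentile, limma's variance trend, the replicate number as a block, a threshold of 0.10 on the adjusted p, averaged probe sets, and leaving out each array. Promoter sequences are from RefSeq, GRCr8, matched by symbol for both amylases, and were aligned with Biopython 1.88.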

Additional observations from a re-analysis of the deposited data

How the results depend on the processing

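Over the alternatives, Amy1 ran from -0.97 to -0.82, Amy2a3 from 0.00036 to 0.16 and the ratio from -1.10 to -0.82, with these ends reached by leaving out single arrays. The replicate block and the mean of probe sets cannot move these differences, and equal medians cannot move the ratio. The 23 other digestive enzymes and secreted proteins had 0 calls in the 15 alternatives run by limma. At an unadjusted p below 0.05 they had 0 in the fit reported and 4 with a variance trend. Without a filter 24 genes of that list were measured, and 1 had an unadjusted limma p below 0.05.

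The count of called probe sets, 39 by limma, was 12 with a constant of 20, 134 with a filter at the 60th percentile, 0 without a filter (2263 at an unadjusted p below 0.05), 249 with a variance trend and 228 at an adjusted p under 0.10. It ran from 2 to 38 with single arrays left out. With the replicate number as a block it was 6. The labels do not say whether equal replicate numbers pair the rats. The deviations of same-numbered arrays correlated at -0.030, 0.026 and -0.14 over all tested probe sets. These values cannot decide whether the rats were paired. The block raised the SE of the Amy1 difference from 0.15 to 0.17.

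Calls in the transcription factor list went from 0 to 1 with the stricter filter and to 3 with a variance trend, in the signalling list from 0 to 1 and 2, and in the starch and glycogen list from 0 to 1 under both, with a constant of 100 and with the mean of probe sets. The cause was not tested. Signal near the array maximum limits what 14 of the 23 digestive and secreted proteins can show.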
